A study of Mus musculus with 16 samples.

Results

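The genes described here are 10 signals of the TGF-beta, BMP and activin families in brown adipocytes of the mouse. They were found as the rows of the count table that carried the symbols *Tgfb1*, *Tgfb2*, *Tgfb3*, *Bmp4*, *Bmp7*, *Bmp8b*, *Inhba*, *Inhbb*, *Fst* and *Grem1*, which made up 10 of 54347 rows. Of these, 6 passed the filter on low counts and were among the 13150 genes tested: *Tgfb1*, *Tgfb2*, *Tgfb3*, *Inhba*, *Fst* and *Grem1*. The other 4, *Bmp4*, *Bmp7*, *Bmp8b* and *Inhbb*, had 98 estimated counts between them in all libraries and are given as counts.

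TGF-beta, BMP and activin ligands are secreted dimers that bind pairs of type I and type II serine/threonine kinase receptors and signal through SMAD proteins. The reach of the ligands is set outside the cell, where latent complexes hold TGF-beta, follistatin (*Fst*) sequesters activins and gremlin 1 (*Grem1*) binds BMPs. In adipose tissue TGF-beta and activins are known mainly as restraints on the differentiation of precursors, whereas several BMPs are known to promote it, BMP7 and BMP8B being linked to brown fat and heat production.

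The libraries came from wt1-SAM cells, an immortalised mouse line that becomes brown adipocytes. The line carries CRISPRa SAM, a dead Cas9 with recruited activators that raise transcription where a guide RNA binds. All cells were differentiated for 7 days, with rosiglitazone, T3, dexamethasone, insulin, indomethacine and IBMX at induction and rosiglitazone in the later differentiation media, and received 250 ng of plasmid by reverse transfection in Opti-MEM on day 4, with differentiation medium again 24 h later. The 4 groups were empty sgRNA vector without stimulation (empty control), empty vector with 1 µM isoproterenol for 24 h (empty iso), the plasmids pSgRNA-MS2-2+7, which encode guides against the lncRNA gene *Gm15551*, without stimulation (sgRNA control), and the same plasmids with isoproterenol (sgRNA iso). Isoproterenol is a β-adrenergic agonist. Each group held 4 libraries of polyadenylated RNA with the replicate numbers 3, 4, 5 and 6 in their titles, although the series text speaks of triplicates. Every culture was of the same line, and no label says whether a number marks a separate culture or day, so p-values measure the spread between these libraries only.

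Total counts ranged from 9053521 to 16546187 per library, and from 5900607 to 12959314 outside a single ribosomal RNA gene. The targeted gene *Gm15551* was at 0.95 ± 0.41 CPM (CPM is the count relative to the TMM-scaled library size, SD, n = 4) in empty control, 0.15 ± 0.20 in empty iso, 2.97 ± 1.08 in sgRNA control and 1.56 ± 0.42 in sgRNA iso libraries and was thus higher with the guides under both treatments. All 10 brown adipocyte markers checked had counts, with sums between 11424 and 25041 CPM per library, and sums of 10 preadipocyte and fibroblast markers lay between 36.3 and 173 CPM. In bulk RNA a lower share of a cell type and less RNA per cell cannot be told apart.

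Per kilobase of exon, *Fst* (1.21 CPM per kb, mean of 16 libraries) and *Tgfb1* (1.20) had the highest mean levels of the genes, followed by *Inhba* (0.769), *Grem1* (0.744), *Tgfb3* (0.427), *Tgfb2* (0.301) and *Bmp4* (0.0856). *Inhbb* (0.0333), *Bmp8b* (0.0247) and *Bmp7* (0.0121) came last. The ranges over the libraries overlapped for every pair of neighbours in this order, and *Fst* had the widest range, from 0.199 to 3.52 CPM per kb, against 0.80 to 1.82 for *Tgfb1*. The order differed between replicate numbers. *Fst* came first in replicates 5 (1.51 CPM per kb) and 6 (2.62), but in replicates 3 (0.383) and 4 (0.309) it lay below *Tgfb1* (1.07 and 1.23) and *Inhba* (0.638 and 0.625). In replicate 4 *Tgfb2* (0.408) and *Tgfb3* (0.355) were also above *Fst* and *Grem1* (0.299). All 3 BMP ligands and *Inhbb* lay below the other 6 genes in each of the 4 replicate numbers.

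*Tgfb1* (chr7:25687002-25705077, plus strand), which encodes the TGF-beta isoform found in most tissues, was higher in most stimulated libraries by a small margin. It was at 5.78 ± 1.29 CPM (SD, n = 4) in empty control, 6.74 ± 1.83 in empty iso, 5.57 ± 0.52 in sgRNA control and 6.08 ± 0.39 in sgRNA iso libraries. The isoproterenol libraries were higher in 7 of 8 pairs with the same replicate number, but the groups overlapped throughout, from 4.03 to 7.14 CPM in control and from 4.90 to 9.16 CPM in stimulated libraries. The averaged isoproterenol effect on the log2 scale was 0.18 (SE 0.14) and did not pass the test (edgeR, Benjamini-Hochberg adjusted p = 0.559).

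*Tgfb2* (chr1:186622792-186705989, minus strand) and *Tgfb3* (chr12:86056745-86079041, minus strand) encode the other TGF-beta isoforms and were low. *Tgfb2* was at 1.89 ± 0.76 CPM in empty control and 1.5 ± 0.63 in empty iso libraries, and at 2.10 ± 0.86 and 1.49 ± 0.33 CPM in the sgRNA control and sgRNA iso libraries (SD, n = 4). It was lower with isoproterenol in 6 of 8 pairs, with an averaged log2 difference of -0.41 (SE 0.27, adjusted p = 0.481 in edgeR), which did not pass the test. In the fit blocked by replicate number the value was -0.40 (SE 0.19), with an unadjusted p of 0.0481 and an adjusted p of 0.145. *Tgfb3* had group means between 1.33 and 1.55 CPM, was higher with isoproterenol in 4 of 8 pairs and lower in the other 4, and had an averaged log2 difference of 0.02 (SE 0.30, adjusted p = 0.983 in edgeR). Exons of *Tgfb2* share 124 bases with the antisense gene *Gm29491*, and those of *Tgfb3* share 257 bases with *Gm48008* and 163 with *Gm37804* on the other strand. Since the use of read strand is not given in the sources used here, reads of such partners cannot be told apart from those of the members.

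The BMP ligands gave few counts. *Bmp4* (chr14:46383520-46390669, minus strand), which is linked to the commitment of adipocyte precursors, had 37 counts in 13 of the 16 libraries, of which 25 fell in control and 12 in isoproterenol libraries, and 9 of them in the sgRNA control library of replicate 6 alone. Exons of *Bmp4* share 89 bases with the gene *Gm15217* on the other strand, with the same limit as above. *Bmp7* (chr2:172868012-172940321, minus strand) had 9 counts in 6 libraries, 1 in control and 8 in isoproterenol libraries. These were none in empty control, 5 in empty iso, 1 in sgRNA control and 3 in sgRNA iso libraries, and a sum of 0 allows up to 0.061 CPM over the 4 empty control libraries, at 3 counts and for counting error only.

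*Bmp8b* (chr4:123105165-123132099, plus strand) had 19 counts in 10 libraries. In cells with the empty vector it had 2 counts in 1 of 4 control libraries and 9 counts spread over 4 of 4 stimulated libraries, whereas in sgRNA cells it had 5 counts in control and 3 in isoproterenol libraries. The directions in the vectors were thus opposite, at no more than 3 counts per library. Its close paralog *Bmp8a* had 6 counts in all, so that reads assigned wrongly between both genes could change these numbers, and *Bmp8b* also shares 339 exon bases with *Gm17244* and 133 with *Ppie* on the other strand. In edgeR without the filter, 0 of the 3 BMP ligands were called under isoproterenol, against 1.25% of all genes in that fit, and *Bmp7* had an unadjusted p of 0.0267.

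**Figure D1:**
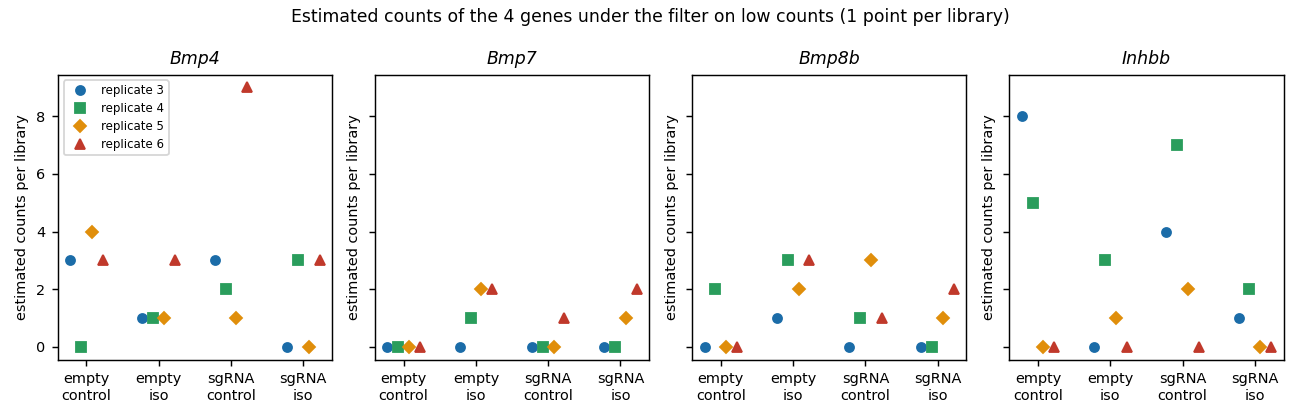
Estimated counts per library (vertical axis) of the 4 genes that did not pass the filter, in the 4 groups (horizontal axis), 1 point per library and 1 symbol per replicate number. No library exceeds 9 counts, and *Inhbb* is at 0 in every library of replicate 6.

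*Inhba* (ENSMUSG00000041324, chr13:16011851-16031621, plus strand) encodes the inhibin βA subunit, which forms activin A as a homodimer, and had the largest averaged isoproterenol effect of the 6 tested members. Annotated genes on the other strand lie within its span, but none of them shares an exon base with it. The RefSeq promoter table held a window for 7 of the 10 genes, and the window of *Inhba* is shown for that reason. The 250 bases before its start site are chr13:16011601-16011850 of GRCm38.p6, plus strand, with TATAAA, the only one of 8 motifs found there, in capitals at -91 to -86.
Inhba promoter: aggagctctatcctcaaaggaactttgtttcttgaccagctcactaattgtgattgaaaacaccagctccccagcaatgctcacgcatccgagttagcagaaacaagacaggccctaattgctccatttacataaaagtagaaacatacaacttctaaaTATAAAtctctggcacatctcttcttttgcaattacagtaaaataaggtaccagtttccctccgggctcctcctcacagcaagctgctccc
These letters were added to the search, together with an NR4A site (AAAGGTCA), after a first search of 6 motifs on both strands had given no match in this window and its sequence had been read, and TATAAA occurs in 13.6% of all 32851 promoter windows of 300 bases. The first 6 included the cAMP response element TGACGTCA (1.79% of windows), its half-site TGACG (20.8%) and the AP-1 site TGANTCA (7.81%). The others were the SMAD-binding element GTCTAGAC (0.213%), its first 6 bases GTCTAG (8.37%) and the GC box GGCGCC (11.9%). Shorter parts of the SMAD-binding element, such as GTCT, were not searched. AAAGGTCA occurs in 1.51% of windows. The half-site TGACG is contained in the cAMP response element, and GTCTAG in GTCTAGAC. Among the other members, *Tgfb2* had TGACG on the reverse strand at -72 to -68 and TATAAA at -31 to -26, and *Grem1* had GGCGCC at -78 to -73. A match is a description of the letters and not of a bound site.

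In cells with the empty vector *Inhba* was at 2.47, 2.17, 2.99 and 5.09 CPM in the control libraries of replicates 3, 4, 5 and 6. The stimulated libraries of the same numbers had 4.77, 5.42, 5.60 and 8.50 CPM. Every stimulated library was above its control of the same number, and only the control of replicate 6 reached into the stimulated range. In sgRNA cells the control libraries were at 2.94, 2.20, 3.52 and 7.07 CPM and the stimulated ones at 6.13, 6.17, 5.45 and 8.12 CPM, again with replicate 6 as the highest of each group. The fold over the control of the same number ran from 1.15 in sgRNA cells of replicate 6 to 2.80 in sgRNA cells of replicate 4. *Inhba* was higher in 8 of 8 pairs, as were 8.16% of all tested genes. Without replicate 6 the 6 control libraries (2.17 to 3.52 CPM) and the 6 stimulated libraries (4.77 to 6.17 CPM) did not overlap, which held in this direction for 1.85% of all tested genes. Replicate 6 was set aside here after its values had been seen.

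*Inhbb* (chr1:119415465-119422248, minus strand), which encodes the βB subunit of activin B, had 33 counts in 9 libraries. Of these, 30 fell in replicates 3 and 4, 3 in replicate 5 and none in replicate 6. The control libraries held 26 counts and the isoproterenol libraries 7, and control libraries were higher in 5 of 8 pairs and lower in 1. The counts were thus concentrated in part of the replicates, and the gene did not pass the filter.

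*Fst* (ENSMUSG00000021765, chr13:114452290-114458951, minus strand) encodes follistatin, which binds and neutralises activins. In cells with the empty vector the control libraries of replicates 3, 4, 5 and 6 had 1.5, 1.51, 5.32 and 10.2 CPM. The stimulated libraries had 2.71, 1.77, 8.02 and 16.1 CPM. The spread between replicate numbers was therefore much wider than the difference between treatments, and control and stimulated libraries overlapped. In sgRNA cells the control libraries were at 1.40, 0.912, 5.16 and 8.89 CPM and the stimulated libraries at 1.42, 1.47, 9.21 and 12.9 CPM. Within the same number, *Fst* was higher with isoproterenol in 8 of 8 pairs, from 1.02-fold in sgRNA cells of replicate 3 to 1.80-fold in empty vector cells of replicate 3. Its exons share 115 bases with the antisense gene *Gm47040*, with the same limit as above.

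*Grem1* (chr2:113746164-113758646, minus strand), the BMP antagonist, had group means between 2.65 and 3.53 CPM and was highest in replicate 6 in all 4 groups. In empty control libraries it was at 1.93, 1.77, 2.34 and 5.61 CPM in replicates 3, 4, 5 and 6. In the stimulated libraries it was at 2.96, 1.05, 2.93 and 6.06 CPM. The sgRNA control libraries had 1.82, 1.52, 1.42 and 5.85 CPM and the sgRNA iso libraries 1.69, 0.622, 4.16 and 7.63 CPM. The direction under isoproterenol differed between replicate numbers, with 5 of 8 pairs higher and both pairs of replicate 4 lower.

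**Figure D2:**
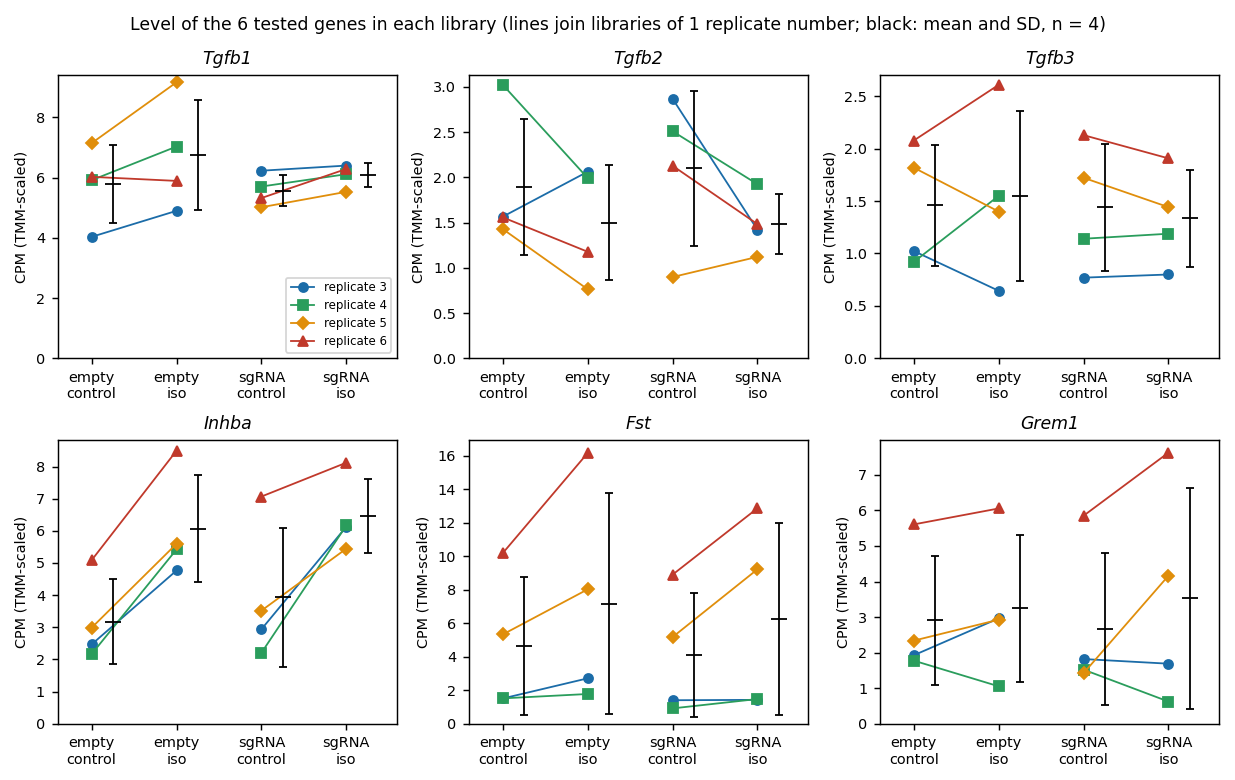
CPM of the 6 tested genes (vertical axis, linear) in the 4 groups (horizontal axis), with lines joining control and isoproterenol libraries of 1 replicate number and black bars for the mean and SD of 4 libraries. The lines of *Inhba* and *Fst* go up in 8 of 8 pairs, while replicate 6 lies highest for *Inhba*, *Fst* and *Grem1*.

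To ask whether β-adrenergic stimulation changed these signals, the isoproterenol effect averaged over both vectors was tested over all genes, and genes were called where the log2 fold change exceeded 0.5 in either direction at an adjusted p under 0.05. In the edgeR fit of the 4 group means, 0 of the 6 tested members were called, against 2.65% of all tested genes. At an unadjusted p under 0.05, 1 of the 6 passed, which was *Inhba*, against 17.7% of all tested genes. Its log2 fold change was 0.84 (SE 0.24) with a Benjamini-Hochberg adjusted p of 0.0587, and *Fst* had 0.64 (SE 0.63) with an adjusted p of 0.671. *Grem1* had a log2 difference of 0.29 (SE 0.49, adjusted p = 0.828). DESeq2 without a block called *Inhba* (0.84, SE 0.25, adjusted p = 0.0147) and no other member, against 3.24% of its genes. Hence, without regard to the replicate numbers, *Inhba* was near the threshold and *Fst* far from it.

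When the replicate number entered edgeR as a block, 2 of the 6 members were called, both higher with isoproterenol, against 5.70% of all tested genes called and 3.09% called higher. *Inhba* rose by 0.89 (SE 0.13, adjusted p = 0.000156) and *Fst* by 0.58 (SE 0.12, adjusted p = 0.00263) on the log2 scale in this fit. The estimates were close to those without the block, while the SE of *Fst* was 0.12 in place of 0.63. *Grem1* had a log2 difference of 0.18 (SE 0.23), *Tgfb1* one of 0.18 (SE 0.13) and *Tgfb3* one of 0.01 (SE 0.18), none of which passed. The ribosomal RNA share of the libraries was higher with isoproterenol in 6 of 8 pairs (11.7% to 51.8%, against 17.8% to 47.3% in control libraries). Both calls stood when that share was added to the blocked fit (*Inhba* 0.94, *Fst* 0.65) and in DESeq2 with the block (*Inhba* 0.90, *Fst* 0.59). In blocked fits with 1 replicate number left out, which were added after the data had been seen, *Inhba* was called in 4 of 4 fits, with a log2 fold change between 0.73 and 1.06. *Fst* was called in 3 of 4, and not without replicate 6 (0.56, SE 0.18, adjusted p = 0.0581).

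Split by vector, the isoproterenol effect on *Inhba* was 0.96 (SE 0.34, edgeR adjusted p = 0.298) in cells with the empty vector and 0.72 (SE 0.33, adjusted p = 0.571) in sgRNA cells. For *Fst* it was 0.67 (SE 0.90, adjusted p = 0.895) and 0.61 (SE 0.89, adjusted p = 0.956). With any whole replicate number left out, these *Fst* values stayed between 0.62 and 0.72 and between 0.49 and 0.69. They moved when only 1 library of a replicate 6 pair was left out. Without the stimulated library of replicate 6 of the same vector they were -0.15 and -0.028, and without its control library 1.45 and 1.32. Neither *Inhba* nor *Fst* was called without the block in either vector, against 0.829% of all tested genes in empty vector and 0.700% in sgRNA cells. With the block, *Inhba* was called in both, at 0.98 (SE 0.19, adjusted p = 0.00343) and 0.80 (SE 0.18, adjusted p = 0.0103), and so was *Fst*, at 0.59 (SE 0.17, adjusted p = 0.0401) and 0.58 (SE 0.17, adjusted p = 0.0452). The background in these blocked fits was 4.47% and 3.90% of all tested genes. In DESeq2 with the block *Fst* missed the threshold in each vector (adjusted p = 0.130 and 0.0810). In blocked edgeR fits without 1 replicate number, *Inhba* stayed called in empty vector cells in 4 of 4 fits, and in sgRNA cells it was lost without replicate 3 (0.71, adjusted p = 0.0794) or 4 (0.60, adjusted p = 0.0906). *Fst* was lost in empty vector cells in 4 of 4 such fits (adjusted p from 0.0680 to 0.240), and in sgRNA cells it was called only without replicate 3 (0.67, adjusted p = 0.0378).

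**Figure D3:**
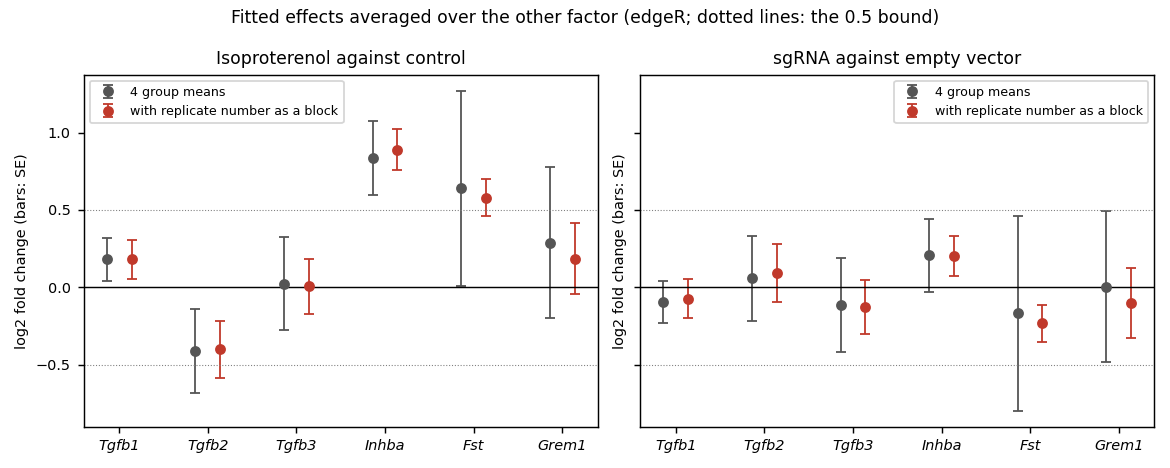
Log2 fold change (vertical axis) of the 6 tested genes for isoproterenol against control and for sgRNA against empty vector, as edgeR estimates with SE bars, in the fit of the 4 group means (grey) and in the blocked fit (red). Under isoproterenol the red points of *Inhba* (0.89) and *Fst* (0.58) lie above the dotted 0.5 line, and under the sgRNA every point lies between the dotted lines.

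The guides against *Gm15551* were not followed by a called difference in any member. Averaged over both treatments, 0 of the 6 tested members were called in edgeR without the block, with the block or in DESeq2, and 0 had an unadjusted p under 0.05 in these 3 fits. Over all tested genes the share called was 0.00% without and 0.266% with the block and 0.0435% in DESeq2, and the share with an unadjusted p under 0.05 was 3.32%, 11.5% and 2.48%. The log2 differences with the block were 0.20 (SE 0.13) for *Inhba*, -0.23 (SE 0.12) for *Fst*, -0.10 (SE 0.23) for *Grem1*, -0.07 (SE 0.13) for *Tgfb1*, 0.09 (SE 0.19) for *Tgfb2* and -0.13 (SE 0.18) for *Tgfb3*. *Fst* was lower in sgRNA cells in 7 of 8 pairs, and 8.31% of all tested genes were lower in 7 or 8. The ribosomal RNA share also moved with the vector, being higher with the empty vector (19.7% to 51.8%) than with the guides (11.7% to 28.7%) in 8 of 8 pairs. With that share added to the blocked fit, the sgRNA difference of *Fst* was -0.42 (SE 0.18, unadjusted p = 0.0314), which was not called, and that of *Tgfb1* was 0.20 (SE 0.17). In this fit it was 0.26 (SE 0.29) for *Tgfb2*, -0.31 (SE 0.27) for *Tgfb3*, 0.08 (SE 0.20) for *Inhba* and 0.10 (SE 0.34) for *Grem1*, none of them called. Whether the isoproterenol effect depended on the vector was tested as an interaction, for which no gene was called in edgeR with or without the block (0.00% of tested genes, with 52 genes at an unadjusted p under 0.05 without and 199 with the block). DESeq2 called 0 genes without and 50 with the block, none of them a member. The interaction was -0.18 (SE 0.26) for *Inhba* and -0.01 (SE 0.24) for *Fst* with the block, and -0.24 (SE 0.47) and -0.06 (SE 1.26) without it.

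The replicate number took a larger share of the variance of log2 CPM than isoproterenol in 5 of the 6 tested members. The shares are sums of squares and were not adjusted for the replicate number having more levels than the treatment. The replicate number held 93.0% for *Fst*, 86.3% for *Tgfb3*, 80.7% for *Grem1*, 63.5% for *Tgfb2* and 19.0% for *Tgfb1*. In *Tgfb1* isoproterenol held 11.4% and 66.9% was left unassigned, and the order of replicate number and isoproterenol reverses per degree of freedom. By the unadjusted shares *Inhba* was the exception, with 51.5% for isoproterenol and 37.5% for the replicate number. Mean *Fst* was 1.76, 1.42, 6.93 and 12.0 CPM in replicates 3, 4, 5 and 6, so that all 8 libraries of replicates 5 and 6 (5.16 to 16.1 CPM) lay above all 8 of replicates 3 and 4 (0.912 to 2.71 CPM), as they did for 3.83% of all tested genes. Mean *Tgfb3* was lowest in replicate 3, at 0.81 CPM, and highest in replicate 6, at 2.18 CPM, and *Grem1* stood out in replicate 6 with 6.29 CPM. *Tgfb2* was lowest in replicate 5, at 1.05 CPM. Per kilobase, the ratio of *Inhba* to its inhibitor *Fst* was between 1.03 and 3.10 in the libraries of replicates 3 and 4 and between 0.359 and 0.571 in those of replicates 5 and 6. The ratio was higher with isoproterenol in 6 of 8 pairs, and lower in the sgRNA pairs of replicates 5 (0.489 and 0.425) and 6 (0.571 and 0.454).

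**Figure D4:**
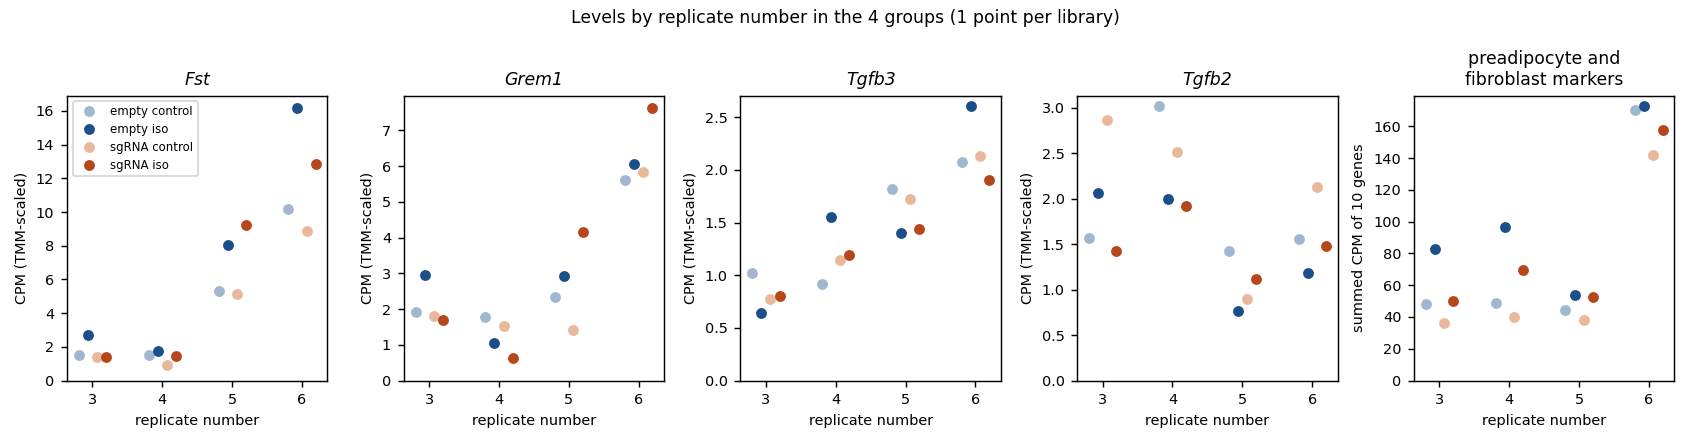
CPM of *Fst*, *Grem1*, *Tgfb3* and *Tgfb2* and the summed CPM of 10 preadipocyte and fibroblast markers (vertical axes, linear) against the replicate number (horizontal axis), 1 point per library with colours for the 4 groups. *Fst* separates replicates 3 and 4 (up to 2.71 CPM) from 5 and 6 (5.16 CPM and more), as 3.83% of all tested genes do. The marker sum, in replicate 6 mostly *Postn*, *Ly6a* and *Cd44*, separates replicate 6 (142 to 173 CPM) from the others.

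Markers of other cell states also differed between replicate numbers and treatments. No sum of a marker list separated replicates 3 and 4 from replicates 5 and 6 as *Fst* did, but single markers did. *Postn* was at 0.775 to 2.38 CPM in replicates 3 and 4 and at 11.5 to 74.5 CPM in 5 and 6. Such a split upwards held for 3.83% of all tested genes. *Des* had the opposite split, with 7.98 to 13.3 and 2.99 to 7.51 CPM, while *Ly6a* and *Cd44* had none. The summed level of the preadipocyte and fibroblast markers, of which 10 of 10 had counts, was 142 to 173 CPM in replicate 6 and 36.3 to 96.8 CPM in the others. Replicate 5, where *Fst* was above replicates 3 and 4, had sums of 37.9 to 53.7 CPM, against 36.3 to 82.8 and 39.8 to 96.8 CPM in replicates 3 and 4. In replicate 6 the sum was mostly *Postn* (mean 57.8 CPM), *Ly6a* (56.6) and *Cd44* (33.0). Mean *Dlk1* (0.099 CPM) and *Thy1* (0) were lowest there, and *Cd34* and *Pi16* were highest in replicate 5. The summed level was higher with isoproterenol in 8 of 8 pairs, with ranges of 36.3 to 170 CPM in control and 50.1 to 173 CPM in stimulated libraries, and lower with the sgRNA in 8 of 8. *Ly6a* and *Cd44* followed the sum in 8 of 8 pairs of both comparisons, whereas *Postn* was lower with isoproterenol in 8 of 8 pairs and higher with the sgRNA in 6, *Dlk1* was lower with isoproterenol in 6, and *Pdgfrb* and *Cd34* were higher in 4 and lower in 4. The sum of the brown adipocyte markers, most of it *Fabp4* and *Lpl*, was 11424 to 18320 CPM in replicate 6 and was lower with isoproterenol in 8 of 8 pairs (14920 to 25041 CPM in control, 11424 to 22384 CPM in stimulated libraries). The genes of this list did not move together, since *Ucp1*, *Cidea* and *Ppargc1a* were higher with isoproterenol in 8 of 8 pairs. In edgeR with the block 3 of the 10 were called higher and 2 lower, against 3.09% and 2.61% of all tested genes. The sum of the 5 smooth muscle and myofibroblast markers was also highest in replicate 6, at 25 to 37.2 CPM against 12.1 to 20.1 CPM in the others, through *Acta2* (mean 21.7 CPM) and *Tagln* (3.43 CPM), whereas mean *Des* (4.51 CPM) and *Myh11* (1.41 CPM) were lowest there. Under isoproterenol 3 of the 4 tested genes of this list, *Acta2*, *Tagln* and *Myh11* (-0.75, SE 0.25), were called lower in edgeR with the block, against 2.61% of all tested genes. *Des* had 0.49 (SE 0.13) there. Without the block 0 of the 4 were called, and with it 0 in empty vector cells alone and 1 in sgRNA cells alone. The 5 leukocyte markers were higher in sum with isoproterenol in 8 of 8 pairs, but *Cd68* was the only one of them to pass the filter. The 4 endothelial markers summed to between 1.42 and 3.15 CPM. The part of these cell states in the levels of *Fst*, *Grem1*, *Tgfb3* and *Inhba* was not tested.

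Of 101 other genes of the pathways in 7 lists, 61 were tested. Under isoproterenol 1 of them was called higher and 0 lower without the block, and 4 higher and 4 lower with it, where 2.65% of all tested genes were called without and 5.70% with the block. A gene on more than 1 list, such as *Skil*, counts once in these numbers. Without the block the called gene was *Skil*, a SMAD corepressor that TGF-beta signalling induces (0.56, SE 0.12, adjusted p = 0.0116 in edgeR). *Skil* was at 21.2 ± 5.2 CPM in empty control against 32.6 ± 5.4 in empty iso libraries, and at 23.4 ± 3.8 against 33.2 ± 3.0 CPM in sgRNA cells (SD, n = 4).

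With the block, 5 of the 10 TGF-beta targets were called, 3 higher and 2 lower, against 3.09% of all tested genes called higher and 2.61% lower, at a median over the list of -0.012 against 0.0028 over all tested genes. Beside *Skil* (0.58), the matrix genes *Tgfbi* (1.14, SE 0.12) and *Fn1* (0.61, SE 0.12) rose. The contractile genes *Tagln* (-0.81, SE 0.22) and *Acta2* (-0.50, SE 0.13), which also mark smooth muscle and myofibroblasts, fell. By vector, 3 of these targets were called higher and 0 lower in empty vector cells, against 2.32% and 2.15% of all tested genes. There *Acta2* had -0.60 (SE 0.19, adjusted p = 0.0602) and *Tagln* -0.29 (SE 0.32, adjusted p = 0.637). In sgRNA cells 2 were called higher and 1 lower, *Tagln* (-1.32, SE 0.31), against 2.08% and 1.83% of all tested genes. Of the 8 BMP targets, 1 was called, *Id2* (1.04, SE 0.09), an inhibitor of basic helix-loop-helix factors, while *Id1*, of the same family, had 0.17 (SE 0.06, adjusted p = 0.0737).

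Of 13 tested receptors and co-receptors, 1 was called lower with the block, *Acvr1c* (-0.67, SE 0.14), which encodes the type I receptor ALK7 of adipocytes. The activin type II receptor gene *Acvr2a* had 0.18 (SE 0.06) and *Tgfbr2* 0.41 (SE 0.05), with adjusted p of 0.0314 and 6.97e-05 but below the bound on the fold change. *Tgfbr2* was higher with isoproterenol in 8 of 8 pairs. *Acvr2a* was higher in 4 of 4 pairs of empty vector cells but lower in 3 of 4 pairs of sgRNA cells. Among 3 tested other ligands *Gdf5* was called lower (-1.51, SE 0.33), at 1.84 ± 1.12 CPM in empty control and 0.54 ± 0.33 in empty iso libraries. None of the 6 tested other extracellular inhibitors and none of the 11 genes of latency and activation was called for the averaged isoproterenol effect with or without the block, while the BMP antagonist gene *Chrdl1* was called lower in sgRNA cells with the block (-0.53, SE 0.14, adjusted p = 0.0267). *Fstl3*, which encodes another activin-binding protein of the follistatin family, had 0.29 (SE 0.10, adjusted p = 0.0456) with the block, below the bound. For the sgRNA effect, 0 of the 61 genes were called without the block and 1 with it (0.00% and 0.266% of all tested genes), the activin type I receptor gene *Acvr1b*, which was lower in sgRNA cells (-0.51, SE 0.10, adjusted p = 0.0224).

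**Figure D5:**
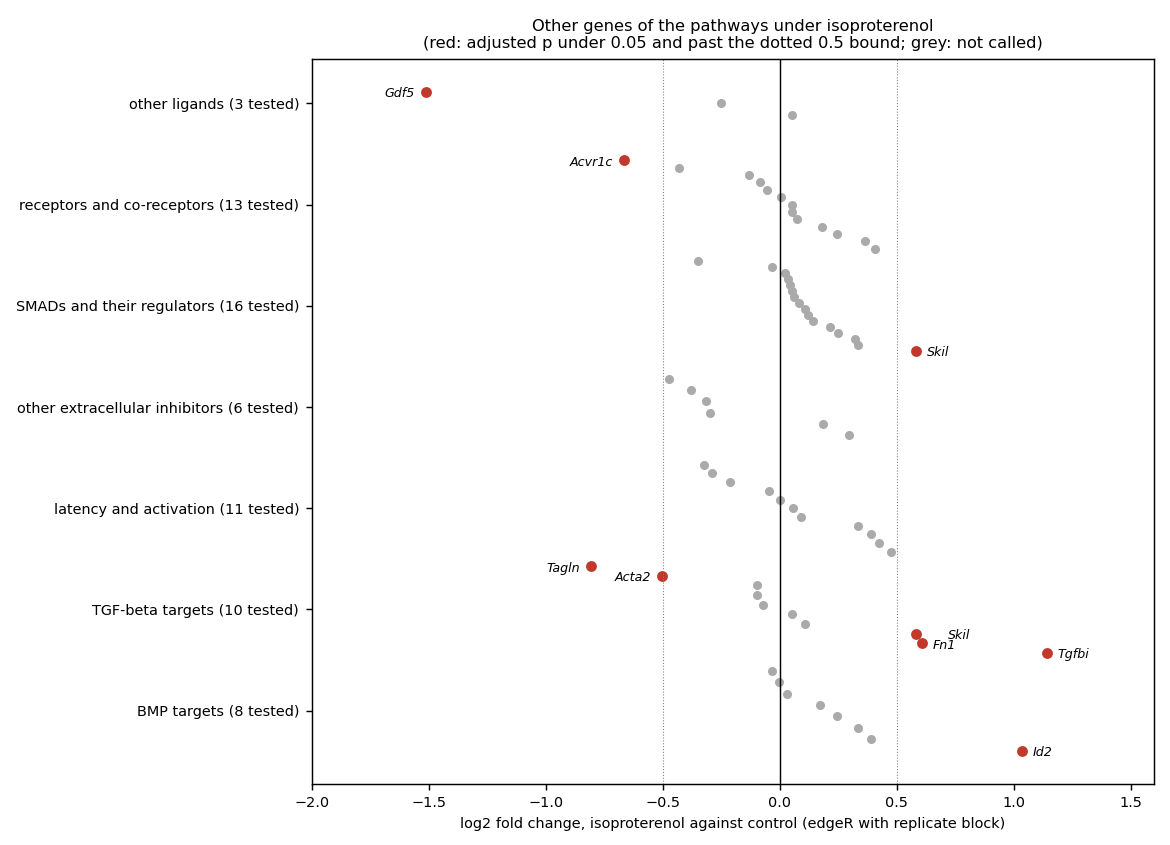
Log2 fold change under isoproterenol (horizontal axis, edgeR with replicate block) of the tested genes of 7 pathway lists (vertical axis), 1 point per gene, with called genes in red and named. The TGF-beta targets hold called points on both sides of 0, from -0.81 for *Tagln* to 1.14 for *Tgfbi*.

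The tested genes whose log2 CPM ran most like that of *Inhba* over the 16 libraries were *Gja1* (Pearson r = 0.92, Spearman rho = 0.80) and *Ephx2* (r = 0.92, rho = 0.89). For *Fst* they were *Rock1* (r = 0.98, rho = 0.97) and *Ptn* (r = 0.97, rho = 0.93). These are the 2 highest values of r for each among 13150 genes and are given as a description, since the libraries share replicate numbers and treatments.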

How the data were processed

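Polyadenylated RNA of wt1-SAM brown adipocytes was measured in 16 libraries, paired end, with the NEBNext Ultra II kit. The submitters' processing notes name bcl2fastq, cutadapt, Salmon and DESeq2 and the build GRCm38, without versions. The authors quantified reads against a GENCODE transcriptome and deposited estimated counts per gene, already whole, not normalised and unfiltered. Salmon divides reads between similar transcripts, so values of paralogs and overlapping genes are uncertain. Coordinates and exon lengths came from another release of GENCODE on the same build, and promoters from RefSeq (GRCm38.p6, 7 of 10 genes matched). No column of values was left out.

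Groups and replicate numbers were taken from the titles. Genes were kept by filterByExpr (minimum count 10, minimum total 15), scaled by TMM and fitted in edgeR 4.0.16 (R 4.3.3) by glmQLFit with 4 group means and no block. Contrasts were tested two-sided with glmQLFTest, with Benjamini-Hochberg adjustment over 13150 genes. SE is the absolute log2 fold change divided by the square root of the quasi-likelihood F. Variance shares used log2 CPM with a prior count of 2. Scripts were tested on simulated counts.

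Pairing by number was checked on log2 CPM centred within groups. Libraries of the same number correlated at 0.22 to 0.61 in every pair (median 0.41), against -0.51 to 0.52 (median -0.21) between libraries that differed in number and group. The ranges overlapped. Centring within groups also pushes values between numbers down where those within a number are positive, so the negative median is no separate evidence. The numbers were treated as pairs. The pairing comes from the data and the shared numbers, not from a statement in the labels. The common biological coefficient of variation was 22.6% without and 10.7% with the block.

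The 10 members, the pathway and marker lists and the tests were chosen with earlier results of these data known. Named genes were the members, pathway genes called for either averaged effect (up to 4 per list and direction), *Bmp8a*, *Gm15551* and the 2 genes most like each called member. *Id1*, *Acvr2a*, *Tgfbr2*, *Fstl3*, *Chrdl1* and the cell type markers named singly were chosen after their values had been seen. Alternatives were RLE scaling, no filter, DESeq2 1.42.0, the replicate block, the block with the ribosomal RNA share, DESeq2 with the block, removal of the ribosomal RNA gene (from the fit and from the totals behind CPM), the adjusted p alone, and each replicate number or library left out in turn. Blocked fits without 1 replicate number were added later. A gene of the TGF-beta target list is not reported here and is left out of the list's counts and median.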

Additional observations from a re-analysis of the deposited data

Results flagged for a closer look

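In 24 groups of 4 libraries, of the 6 tested members in the 4 groups, 3 held a library far from the other 3 by Dixon's criterion at the 95% level, which chance gives in about 1 of 20 groups. *Tgfb2* in the empty control library of replicate 4 was at 3.02 CPM, above 1.43 to 1.56 CPM in the other libraries of the group. *Grem1* was at 5.61 CPM in the empty control library of replicate 6 and at 5.85 CPM in the sgRNA control library of replicate 6, where the others lay between 1.77 and 2.34 CPM and between 1.42 and 1.82 CPM. Both *Grem1* values belong to the replicate with the highest sums of preadipocyte and fibroblast markers, 170 and 142 CPM in these libraries. In that replicate the sums were mostly *Postn*, *Ly6a* and *Cd44*, while mean *Dlk1* (0.099 CPM) and *Thy1* (0) of the same list were lowest there. The part of those cells was not tested.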

How the results depend on the processing

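Under isoproterenol averaged over both vectors, *Inhba* lay between 0.82 and 0.94 on the log2 scale in 8 alternatives that kept all libraries, with adjusted p from 1.17e-06 to 0.0587, and *Fst* between 0.58 and 0.65, with adjusted p from 0.00159 to 0.744. Members called were 1 without the filter on low counts, 1 in DESeq2 and 2 each with the replicate block, with the block and ribosomal RNA share, and in DESeq2 with the block. In each vector alone they were 2, 2 and 1 in these blocked fits. With the replicates as pairs, the block thus changed the calls of *Inhba* and *Fst* and of no other member. Without the block, *Inhba* was called without replicate 6, and not without any other replicate number, and without either control library of replicate 6 (adjusted p = 0.0184 for empty vector and 0.00778 for sgRNA). The cause was not tested.

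Genes called for the averaged isoproterenol effect were 749 with the block, 730 with the ribosomal RNA share added, 728 in DESeq2 with the block and 590 by the adjusted p alone. In the same blocked order empty vector cells had 588, 567 and 730 and sgRNA cells 513, 538 and 485, with 226 and 176 in DESeq2 without the block. For the sgRNA averaged over treatments they were 35, 14 and 96, with 10 without the filter and 10 in DESeq2. In control libraries alone they were 4, 5 and 217, with 1 and 2, and in stimulated libraries 16, 4 and 205, with 4 and 2. The interaction had 1 with the block and ribosomal RNA share and 50 in DESeq2 with the block. The sgRNA difference of *Tgfb1* turned to 0.20 with the block and ribosomal RNA share, and that of *Grem1* to -0.10 with the block and -0.11 in DESeq2 with the block.

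With a replicate number or library left out, genes called for isoproterenol ranged from 120 (without replicate 3) to 465 (without the empty iso library of replicate 5) without the block, and from 607 to 752 in the 4 blocked fits added later, with 0 to 1 and 1 to 2 members called. In empty vector cells they ranged from 35 (without replicate 4) to 181 (without the empty control library of replicate 6) and from 418 to 544, with 0 to 1 members and 1 member. In sgRNA cells they ranged from 29 (without replicate 4) to 98 and from 348 to 427, with 0 and 0 to 1 members. For the sgRNA they ranged from 0 to 2 and from 16 to 26, in control libraries were 0 and 0 to 5, in stimulated libraries 0 and 1 to 12, and for the interaction 0 and 0 to 1. Over both kinds of fit the isoproterenol effect ranged from -0.16 to 0.15 for *Tgfb3* and from -0.074 to 0.65 for *Grem1*. For *Inhba* it ranged from 0.70 to 1.06. For *Fst* the averaged effect ranged from 0.23 (without the empty iso library of replicate 6) to 1.03 (without the empty control library of replicate 6), and it ranged from -0.15 to 1.45 in empty vector and from -0.028 to 1.32 in sgRNA cells, with the sign lost without the stimulated library of replicate 6. The sgRNA difference ranged from -0.27 to 0.10 for *Tgfb1*, -0.039 to 0.24 for *Tgfb2*, -0.23 to 0.077 for *Tgfb3*, -0.0061 to 0.37 for *Inhba*, -0.52 to 0.25 for *Fst* and -0.36 to 0.28 for *Grem1*. The interaction ranged from -0.56 to 0.20 for *Inhba* and from -0.84 to 0.76 for *Fst*. Of 1344 values of 42 results over all alternatives, 143 in 32 results had the other sign. With library totals taken without the ribosomal RNA gene the levels were higher, for *Tgfb1* in empty control libraries 7.87 in place of 5.78 CPM. A total of 3 counts equals 0.166 to 0.390 CPM per library, which limits *Bmp4*, *Bmp7*, *Bmp8b* and *Inhbb*. Without the filter, the isoproterenol effect had an unadjusted p of 0.0267 for *Bmp7* (edgeR adjusted p = 0.432) and 0.0336 for *Inhbb* (adjusted p = 0.480).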
